A study of Mus musculus with 32 samples.

Results

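Droplets with transcripts of secondary-granule genes, the genes of maturing granulocytes, were picked out of the cultures. A droplet counted as a member if *S100a8*, *S100a9*, *Camp*, *Ngp*, *Ltf* and *Lcn2* together made up at least 1% of its unique molecular identifiers (UMIs, each a captured transcript) and *Mpo*, *Elane*, *Prtn3* and *Ctsg* together under 0.5%. Of 107853 droplets in 16 pools, 90924 had 400 to 6200 detected genes and at most 10% mitochondrial UMIs, and 2061 of these (2.27%) met the rule. Members were chosen by the levels of these 10 genes, so those levels are given as a description, with no test. Of the 2061, 32 reached 1% only with *Lcn2*, which stromal cells can also express. Most of these, 29 of 32, lay close to the limit, at 0.8% or more without *Lcn2*. Gene comparisons used the 2029 that reached 1% without *Lcn2*, called granule members below.

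The droplets came from single-cell RNA-seq (scRNA-seq) of BMSC-OBs, bone marrow stromal cells of Diversity Outbred (DO) mice that were cultured under osteogenic conditions until they mineralised. DO mice are an outbred stock descended from several inbred founder strains, and each animal carries its own genotype. Cells of 77 mice were released with EDTA, collagenase and trypsin, mixed into 16 pools of 4 or 5 mice, captured with a droplet kit that reads transcripts from the polyadenylated end, and sequenced in 2 runs. All pools carried the same treatment, so there was no treated or control arm, and age and sex were not given per pool in the labels used here. A pool is the replicate throughout, and the mice within it are averaged. Only cells present at the end of the culture and recovered by the release could be seen. Whether they had lasted from the marrow or arose in culture was not tested.

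Neutrophil granulocytes are made in the marrow from promyelocytes, which pack *Mpo*, *Elane*, *Prtn3* and *Ctsg* into primary granules. They then stop dividing at the myelocyte stage while they make the secondary-granule proteins (*Camp*, *Ngp*, *Ltf*, *Lcn2*), and later the tertiary-granule gelatinase *Mmp9*, the chemokine receptor *Cxcr2* and the resistin-like protein *Retnlg*. *S100a8* and *S100a9* encode the chains of calprotectin, an abundant cytosolic protein of neutrophils. The order of the Camp/Ngp and Retnlg programs is therefore textbook knowledge and was not measured here.

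Upstream sequence of 4 of these genes is shown because the granule genes and *Retnlg* divide the members below. Each stretch is RefSeq sequence of GRCm38.p6 on the + strand, 180 bases that run from 250 to 71 bases upstream of the start that RefSeq gives the gene, which other annotations can place differently. Capitals mark matches to TTNNGNAA, a simplified C/EBP-type motif (C/EBP factors drive granulocyte genes), or to GAGGAA, a PU.1-type core, on either strand. No match overlapped another. *Ngp* (chr9:110419558-110419737) held 2 C/EBP-type matches and no PU.1-type match, *Ltf* (chr9:111019042-111019221) and *Mmp8* (chr9:7558179-7558358) held 1 of each, and *Retnlg* (chr16:48872358-48872537) held 1 C/EBP-type match. Of 32851 windows of the same length and place, 30.1% held the first motif and 17.2% the second, so a match is a description of these letters and not a binding site.
Ngp: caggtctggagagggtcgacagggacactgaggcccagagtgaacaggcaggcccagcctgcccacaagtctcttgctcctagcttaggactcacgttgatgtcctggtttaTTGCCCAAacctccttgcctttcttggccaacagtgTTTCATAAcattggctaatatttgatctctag
Ltf: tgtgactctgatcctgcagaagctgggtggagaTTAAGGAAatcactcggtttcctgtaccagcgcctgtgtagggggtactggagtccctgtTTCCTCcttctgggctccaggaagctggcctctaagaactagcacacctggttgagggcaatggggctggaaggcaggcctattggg
Retnlg: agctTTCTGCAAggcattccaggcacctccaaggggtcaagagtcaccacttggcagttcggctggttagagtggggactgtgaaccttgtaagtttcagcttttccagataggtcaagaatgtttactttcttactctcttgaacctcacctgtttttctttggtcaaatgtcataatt
Mmp8: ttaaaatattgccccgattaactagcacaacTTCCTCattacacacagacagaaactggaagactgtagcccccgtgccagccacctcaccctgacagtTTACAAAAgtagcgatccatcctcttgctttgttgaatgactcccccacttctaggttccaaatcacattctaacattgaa

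The members were spread unevenly over the pools. They made up 2.13 ± 2.87% of a pool's kept droplets (SD, n = 16 pools), with a median of 1.35%. The lowest share was 0.0278% in pool 13 (2 of 7195 droplets, exact 95% binomial interval 0.00337 to 0.100%). The highest was 11.6% in pool 18 (878 of 7597, interval 10.8 to 12.3%). Such intervals cover counting error only. Pool 18 held 42.6% of all members, and the mean without it was 1.51 ± 1.43% (n = 15 pools). Pools 11, 12 and 8 followed with 4.17, 3.57 and 3.14%, whose intervals overlap between neighbours, and 5 pools had under 20 members. The second run gave 2069 members, and 94.9% of the members of the first run met the rule again. No member's barcode sequence was also a member in another pool, although 1521 sequences (1.43%) occurred in several pools. Pools differed in depth, with 53990642 to 100777353 UMIs in total.

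**Figure D1:**
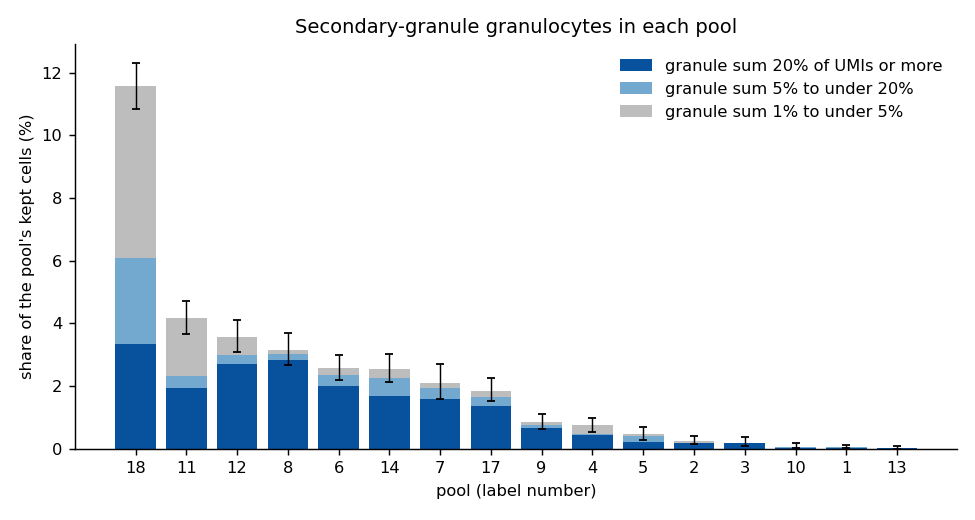
Share of each pool's kept droplets (y axis, %) that met the rule, by pool number (x axis, sorted by share), with bars divided by the level of the 6-gene sum and with exact 95% binomial intervals of the whole bar. Pool 18 stands at 11.6% and 416 of its 878 members lie at a sum of 1 to under 5%, while pools 1, 3, 10 and 13 hold 10 members or fewer.

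Pools with a higher share of members also had a higher share of primary-granule precursors, the 401 kept droplets in which the 4 primary-granule genes reached 0.5% and which the rule leaves out. Of these 401, 326 also reached 1% of the 6-gene sum and were set apart from the members only by the primary-granule limit. Over 16 pools, Pearson's r between the shares was 0.60 and Spearman's rho 0.894, and r was 0.789 without pools 18 and 11, which lie farthest from the median share. These values are a description with no test, since the genes of the rule cut both shares from the same droplets. Among the 4 relations computed, permutation tests (two-sided) found none with the share of *Csf1r*-positive *Tyrobp*-positive cells (r = -0.07, rho = 0, adjusted p = 0.784 and 1) or with the median UMIs per droplet (r = -0.29, adjusted p = 0.554). Without pools 18 and 11 these r were -0.01 and 0.19, so the sign of the latter rests on those pools. With the members' share on the Retnlg side described below, r was 0.16 over 13 pools. That value too is a description with no test, since *Camp* and *Ngp* enter both the rule and the sides.

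The label held for the members with a high sum and not for those near the threshold. The sum was 20% or more of UMIs in 1072 members (52.0%). Of these, 98.7% had a UMI of *Tyrobp* (a signalling adaptor of myeloid cells), 73.97% of *Ptprc* (the leukocyte antigen CD45), 80.0% of *Cd177* (a neutrophil surface protein) and 75.6% of *Retnlg*. In the 634 members at 1 to under 5% (30.8%), these shares were 42.9, 21.9, 15.6 and 35.0%. *Col1a1* and *Ibsp* with 3 more stromal genes made up 5.88% of their UMIs, against 0.307% at 20% or more and 9.57% in the 80298 other kept droplets. Other kept droplets are neither members nor *Csf1r*-positive *Tyrobp*-positive cells, and they include the primary-granule precursors. By droplet, the median was 5.12% in the low-sum members, 5.11% in other kept droplets and 0.280% in *Csf1r*-positive *Tyrobp*-positive cells. Of these 634, 416 were in pool 18 and 111 in pool 11.

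Other kept droplets had *Tyrobp* in 21.5% of cases, *Ptprc* in 9.03%, *Retnlg* in 0.832% and *Cd177* in 0.227%, at a median of 9861 UMIs against 1763 in the low-sum members and 4167 at 20% or more. In other kept droplets of pool 18 the sum averaged 0.0897% of UMIs with a 99th percentile of 0.952%, the latter the highest of the 16 pools. The rule holds this sum under 1% in these droplets, except in the primary-granule precursors, 64 in pool 18. Both values are thus shaped by the rule and are no measure of background. Just outside the threshold, 124 droplets at 0.8 to under 1% had a median of 6.54% stromal UMIs and 30.6% had *Tyrobp*. Just inside, 109 members at 1 to under 1.2% had 6.45% and 32.1%. The term granule members is thus a name for the droplets that met the rule, low-sum ones included, and not for a cell type. Gene list counts are also given for the 1406 granule members at 5% or more, of which 1376 were in the 11 pools of the first comparison. In all gene comparisons this 5% had to be reached without *Lcn2*, as the 1% had to be for granule members. The part of free RNA and of doublets in the members was not tested, but 12.1% of low-sum members and 1.399% of those at 20% or more were among the highest doublet scores, against 5.61% of all kept droplets.

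**Figure D2:**
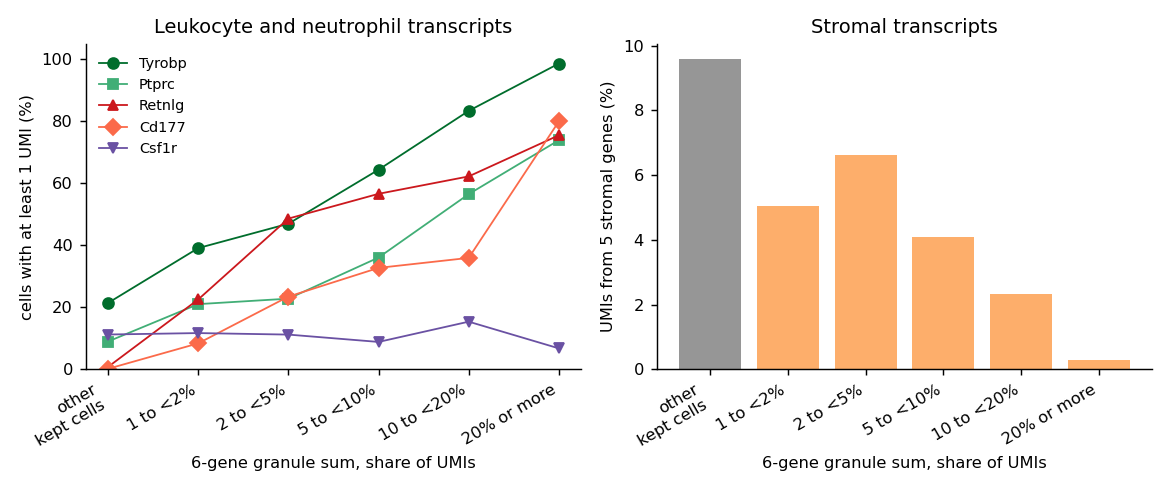
Left, share of droplets with at least 1 UMI of a gene (y axis, %), and right, share of UMIs from 5 stromal genes (y axis, %), for other kept droplets and for members by their 6-gene sum (x axis). *Tyrobp* goes from 39.2% of members at 1 to under 2% up to 98.7% at 20% or more, while stromal UMIs fall from 6.61% at 2 to under 5% to 0.307%.

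Among the genes of the rule, *S100a9* and *S100a8* dominated. They took 8.93 and 7.16% of the members' summed UMIs, followed by *Ngp* (2.66%), *Camp* (2.26%), *Lcn2* (1.06%) and *Ltf* (0.275%), which binds iron. In members at 5% or more, *S100a9* stood at 11.7% and *S100a8* at 9.29%. In other kept droplets *S100a8* was 0.0116% of UMIs and had a UMI in 14.3% of droplets, against 99.3% of members, so sparse counts of these genes occur in every class. The 4 primary-granule genes, which the rule kept low, ranged from 0.00196% (*Mpo*) to 0.0202% (*Prtn3*) of the members' UMIs.

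For genes outside the rule, granule members were compared with *Csf1r*-positive *Tyrobp*-positive cells of the same pools. *Csf1r* encodes the receptor for the macrophage growth factor CSF1, and at least 2 UMIs of each gene defined these 8565 mononuclear phagocytes. The 2 classes overlapped little: 47 of the 2061 members also had 2 UMIs of each and were kept with the members. Counts were summed per pool in the 11 pools with at least 20 cells of each class (1995 members and 4960 other cells), scaled by TMM and compared by the quasi-likelihood test of edgeR, in which each pool was a block. Of 9092 genes tested, 5074 (55.8%) had a Benjamini-Hochberg adjusted p of at most 0.05, 2385 (26.2%) higher and 2689 (29.6%) lower in granule members, and the median log2 fold change was -0.08. Levels below are TMM-scaled CPM (a gene's UMIs relative to the library total) over 11 pools, and folds are log2. Both classes were cut from the same droplets by their own transcripts, which limits what the number of calls shows.

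*Retnlg*, which did not enter the rule for membership, was at 617 to 5349 CPM in granule members (median 2485) and at 0 to 3.57 in *Csf1r*-positive *Tyrobp*-positive cells. The pools of both classes were far apart, and the log2 fold change was 11.61 ± 0.28 (SE, edgeR adjusted p = 1.6e-17). A UMI of *Retnlg* was found in 61.0% of granule members and in 0.572% of the other class, which was deeper (median 7377 against 2792 UMIs). With every droplet thinned to 1000 UMIs the shares were 47.8 and 0.0468%. *Ly6g*, which encodes the antigen used to sort mouse neutrophils, was at 159 to 607 CPM (median 423) against 0 to 0.369 (log2 fold change 11.34). *Olfm4*, a granule protein present in only some neutrophils, was at 218 to 3185 CPM (median 1792) against at most 1.35 (11.36).

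Every one of the 10 further secondary and tertiary granule proteins was higher in granule members, with a median log2 fold change of 7.00. *Chil3*, a chitinase-like protein, had the highest level, 12977 to 32026 CPM (median 18955) against 3.26 to 3107 (log2 fold change 7.11 ± 0.86, edgeR adjusted p = 5.82e-07). *Cd177* stood at 270.1 to 594 CPM (median 447) against at most 1.84 (9.66). *Pglyrp1*, which binds bacterial peptidoglycan, rose by 10.29 on the log2 scale and *Hp*, which encodes haptoglobin, by 4.12. The collagenase *Mmp8* was at 120.4 to 1344 CPM (median 685) against 3.70 to 96.4 (4.93 ± 0.40, edgeR adjusted p = 1.46e-09). The gelatinase *Mmp9* overlapped between the classes, at 45.2 to 344 against 10.3 to 289 CPM, and was higher in 8 of 11 pools (1.48 ± 0.51, adjusted p = 0.0178).

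Of 15 mature neutrophil genes tested, 11 were higher and 2 lower, with a median log2 fold change of 2.92. The 2 lower ones are not among the genes named here. *Clec4e*, of high level in this list, overlapped between the classes and was higher in 10 of 11 pools (1.00 ± 0.14, edgeR adjusted p = 4.19e-06). *Cxcr2* was at 22.6 to 73.96 CPM (median 49.97) in granule members and at 0 to 1.97 in the other class (6.00 ± 0.28, edgeR adjusted p = 4.34e-13). *Csf3r*, the receptor for the granulocyte growth factor G-CSF, was at 37.9 to 73.96 against 5.82 to 15.1 CPM (2.70 ± 0.16, adjusted p = 1.33e-11). *Ifitm6*, an interferon-induced membrane protein, was 7.49 higher and *Msrb1*, a methionine sulfoxide reductase, 2.53 higher. *BC100530*, a stefin-like gene, was 10.44 higher in the fit and ranged from 7.53 to 1071 CPM over the pools. It has near-identical family members, so its count is uncertain.

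The differences were smaller for genes of the killing and migration machinery. All 6 subunits of the NADPH oxidase tested were higher in granule members, with a median log2 fold change of 1.66. The membrane subunits *Cyba* (0.84) and *Cybb* (0.81) overlapped between the classes, while the regulatory subunits *Rac2* (3.00) and *Ncf1* (2.27) did not. Of 12 chemoattractant receptors and adhesion genes, 10 were higher and 1 lower. The integrin chains *Itgam* (2.08, 179 to 340.2 against 42.4 to 99.7 CPM) and *Itgb2* (1.66) were higher, and *Ptprc* too (1.25). *Cxcr4*, which holds cells in the marrow, was the 1 that fell, at 51.2 to 149 against 165 to 417 CPM (log2 fold change -1.27, edgeR adjusted p = 2.86e-07). *Cd44*, a hyaluronan receptor, differed by 0.12 (adjusted p = 0.406).

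All 20 genes of DNA replication and mitosis tested were higher in granule members, with a median log2 fold change of 2.02. *Top2a*, the DNA topoisomerase of dividing cells, was at 190.4 to 631 CPM (median 407) against 19.6 to 80.5, without overlap (2.97 ± 0.18, edgeR adjusted p = 3.03e-11). *Hmgb2*, a chromatin protein, was at 1196 to 4036 against 89.3 to 209 CPM (4.12) and *Stmn1*, which regulates microtubules, at 68.3 to 529 against 41.1 to 115 (2.12). *Tuba1b*, a tubulin that most cells express, differed least among the 4 named (0.52, adjusted p = 0.00255). Of 9 genes of promyelocytes and precursors outside the rule, 5 were higher and 3 lower, with a median log2 fold change of 1.84. Of 11 transcription factors of granulopoiesis, 5 were higher and 6 lower. *Cebpe*, needed for secondary granules, was at 92.8 to 372 CPM against at most 1.30 (8.72 ± 0.25). *Spi1*, which encodes PU.1, was 1.04 and *Lmo4* 1.89 higher, while *Cebpb* (-0.69) and *Junb* (-1.50) were lower.

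Macrophage genes were lower in granule members. Of 13 macrophage genes tested, 12 were lower, with a median log2 fold change of -4.27. *Apoe*, a lipid carrier, was at 59.8 to 481 CPM against 1773 to 7732 (-4.27 ± 0.28, edgeR adjusted p = 7.37e-11). The complement genes *C1qa* (-4.69), *C1qb* (-4.71) and *C1qc* (-4.58), the mannose receptor *Mrc1* (-4.63), the complement receptor *Vsig4* (-5.72), the chemokine *Ccl2* (-4.81), the platelet factor *Pf4* (-4.69), the reductase *Cbr2* (-4.67), the interferon-inducible *Ifi27l2a* (-4.63) and the folate receptor *Folr2* (-4.58) were the 10 lowest folds among genes with 1 direction in all 11 pools, which was a condition for naming them. The exception in the list was *Cd14*, a co-receptor for lipopolysaccharide, which was higher (1.08, adjusted p = 5.43e-06).

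Lysosomal genes were lower in 14 of 16 cases and higher in none, with a median of -1.54, among them the proteases *Ctsb* (-3.12) and *Ctsd* (-1.65) and the saposin precursor *Psap* (-2.55). All 4 genes of MHC class II tested were lower, with a median of -4.07 and a spread in the other class from 4.49 to 1933 CPM for *Cd74*. Of 13 inflammatory genes, 10 were lower, including *Tnf* (-2.27) and the chemokine *Cxcl2* (-1.34), and 1 was higher, the chemokine *Ccl3* (0.76, higher in 9 of 11 pools). Of 11 survival genes, 7 were lower and 2 higher, and *Mcl1*, on which neutrophil survival depends, differed by -0.06 (edgeR adjusted p = 0.547). Glycolysis was mixed, with 7 of 16 genes higher and 4 lower, and *Gapdh* was 0.53 higher. Of 7 interferon-stimulated genes, 2 were lower and none higher.

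Stromal transcripts were present in both classes. Of 15 stromal genes tested, 10 were lower in granule members and none higher. *Ibsp*, a bone matrix protein of osteoblasts, was at 902 to 17694 CPM in granule members and at 4920 to 20373 in *Csf1r*-positive *Tyrobp*-positive cells (-0.66, edgeR adjusted p = 0.00592), and *Col1a1* differed by -0.43 (adjusted p = 0.0313). Leaving out *Csf1r*-positive *Tyrobp*-positive cells with over 2% stromal UMIs turned both directions, to 2.95 for *Ibsp* and 2.52 for *Col1a1*. Both genes count toward this stromal share and only that class was cut, so a shift in this direction was fixed in advance. With members at 5% or more, all 14 stromal genes tested were lower than in the unrestricted other class, 67.4% of 8878 genes passed (30.2% higher and 37.1% lower), and the granule, mature neutrophil, oxidase, receptor and adhesion, replication, transcription factor, survival, macrophage, lysosome and MHC class II lists gave the same counts as above. The counts that moved were those of inflammatory genes (8 of 13 lower and 1 higher), glycolysis (6 of 16 lower and 7 higher), interferon-stimulated genes (2 of 4 lower), promyelocyte and precursor genes (4 of 8 higher and 3 lower) and lists of other cell types.

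**Figure D3:**
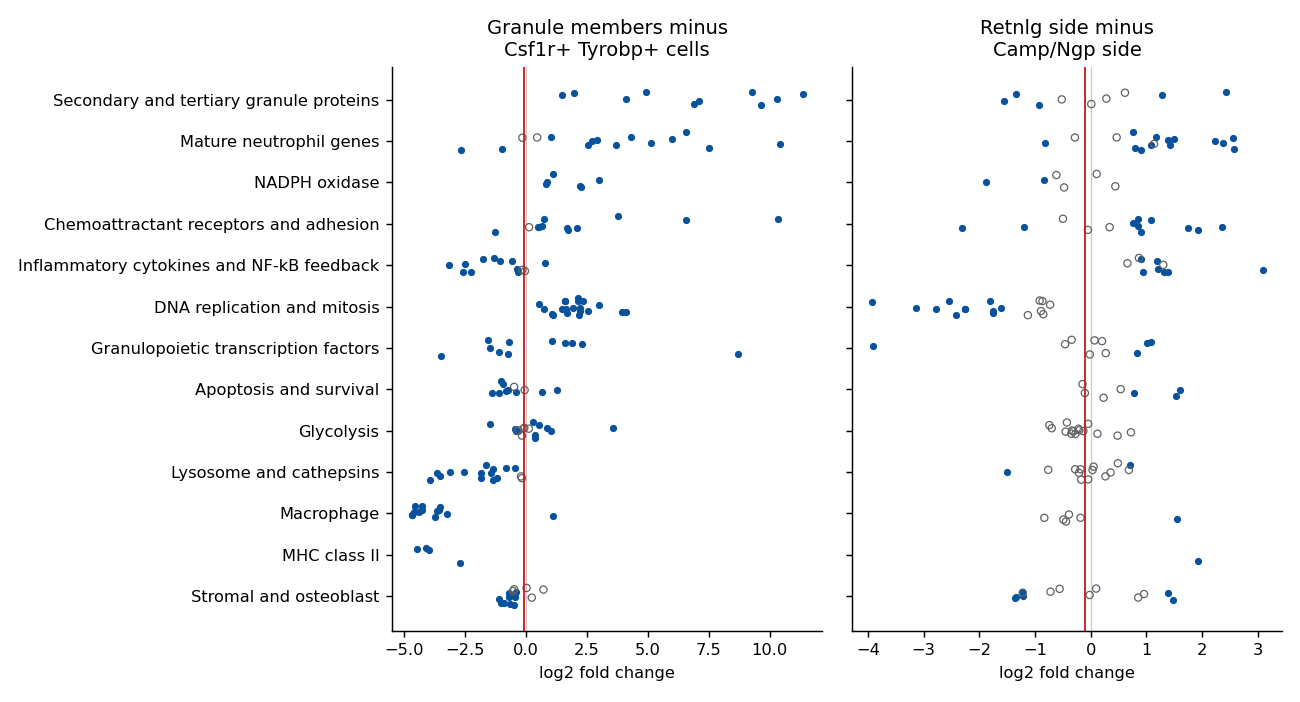
Log2 fold change (x axis) of each tested gene of 13 gene lists (y axis), left for granule members minus *Csf1r*-positive *Tyrobp*-positive cells and right for Retnlg side minus Camp/Ngp side. Filled points passed an edgeR adjusted p of 0.05, open points did not, and the red line is the median of all tested genes (-0.08 left, -0.10 right). Replication genes lie right of the line on the left and mostly left of it on the right, and a gene with 0 counts on a side is not drawn.

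Genes detected per droplet differed little once the 6 genes of the sum were removed, a step added after the data were seen. At 1000 UMIs per droplet, 601 ± 16.3 genes were then seen in granule members and 616 ± 20.1 in *Csf1r*-positive *Tyrobp*-positive cells (SD of pool medians, n = 11 pools), a difference of -14.7 ± 15.5 genes (lower in 9 of 11 pools, permutation test, two-sided, p = 0.00998). With the 6 genes kept, the values were 470 ± 46.1 and 615 ± 19.9, which is a description with no test, since a high share of UMIs in 6 genes chose the members and leaves fewer UMIs for other genes. That setting left out 245 granule members and 11 other cells as too shallow. With the 6 genes removed, the setting that was tested, 327 granule members and 11 other cells were left out. Unthinned medians were 1050 and 2431 genes.

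Within the granule members, *Camp* and *Ngp* were set against *Retnlg*. *Camp* plus *Ngp* reached 1% of UMIs without *Retnlg* doing so in 1060 of 2029 members (52.2%), both did in 204 (10.1%), *Retnlg* alone did in 116 (5.72%), and neither did in 649, of which 551 were low-sum members. Each member was put on the Camp/Ngp side or the Retnlg side by whether *Camp* plus *Ngp* or *Retnlg* had more UMIs. This gave 1658 and 236 members, while 129 had under 3 UMIs of the 3 genes and 6 were tied. The sides are ranges of a ratio, and 198 of the 1894 (10.5%) lay within a ratio of 3 of the border. The Retnlg side held 10.9 ± 7.52% of sided members (SD, n = 13 pools with at least 10), from 2.27% in pool 9 to 30% in pool 14 (36 of 120). Both sides were found together in 15 of the 16 pools, with no Retnlg-side member among the 2 of pool 13.

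**Figure D4:**
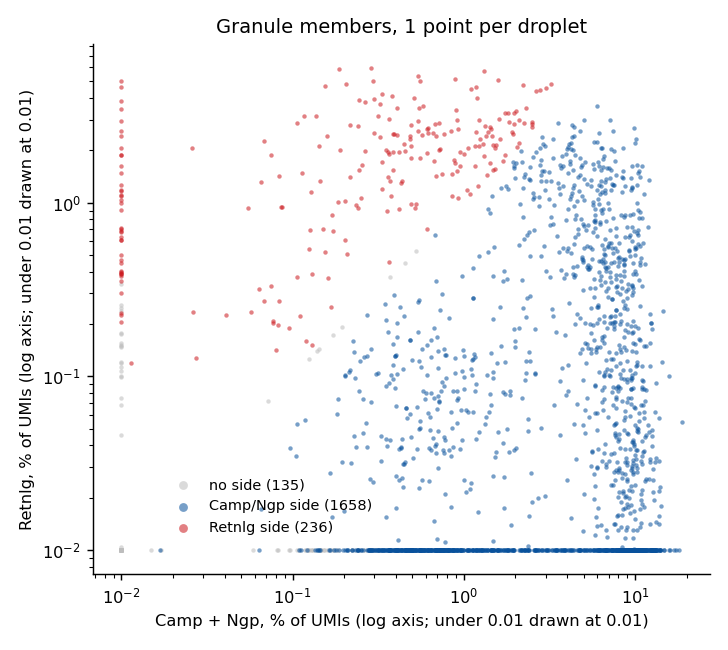
Share of UMIs from *Camp* plus *Ngp* (x axis, %, log scale) against *Retnlg* (y axis, %, log scale) in 2029 granule members, a point each, with values under 0.01% drawn at 0.01%. The 1658 members of the Camp/Ngp side and the 236 of the Retnlg side form a continuous spread, and 204 members have at least 1% of both.

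The Retnlg side was shallower and had a lower 6-gene sum, which includes the *Camp* and *Ngp* that divided the sides. Its median was 1699 UMIs and 702 genes per droplet, against 3235 and 1145.5 on the Camp/Ngp side. Its 6-gene sum had a median of 19.5% against 26.8%, and mitochondrial UMIs of 0.997 against 1.91%. Low-sum members were 14.4% of the Retnlg side and 27.7% of the Camp/Ngp side. As a description, *Ltf* was 4047 ± 956 CPM on the Camp/Ngp side and 181 ± 186 on the Retnlg side (SD, n = 7 pools), and *Lcn2* 13384 ± 2966 and 6993 ± 2730. *S100a8* (87018 ± 25988 and 60216 ± 24114) and *S100a9* overlapped between the sides. At 1000 UMIs, with the 6 genes of the sum kept, the sides had 469 ± 64.9 (Camp/Ngp) and 473 ± 24.4 (Retnlg) genes over 6 pools. The Retnlg side was lower only in pool 18. Pool 12 had 8 Retnlg-side members at that depth and was not used. These gene numbers are a description with no test, since *Camp* and *Ngp* divided the sides and take UMIs from other genes.

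The sides were compared in the 7 pools with at least 10 members on each (6, 8, 11, 12, 14, 17 and 18), which held 222 Retnlg-side and 1478 Camp/Ngp-side members. Of 4078 genes tested with the pool as a block, 418 (10.3%) passed, 187 (4.59%) higher and 231 (5.66%) lower on the Retnlg side, and the median log2 fold change was -0.10. Restricting to members at 5% or more without *Lcn2* (188 and 1026) gave 1221 of 2832 (43.1%), 16.5% higher and 26.6% lower. Both the sides and the tested values come from the same droplets. Values below are the Retnlg side minus the Camp/Ngp side, over 7 pools. The Retnlg side held 20385 to 376732 UMIs per pool, so a 0 in a pool is a bound and not a measured absence.

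Replication and mitosis genes were lower on the Retnlg side, 11 of 17 tested and none higher, with a median log2 fold change of -1.75. *Top2a* had 24 UMIs on the Retnlg side over the 7 pools and 1989 on the other, at 0 in 4 pools and at most 172 CPM against 191 to 566 (-3.14 ± 0.44, edgeR adjusted p = 6.59e-06). *Mki67*, which marks cycling cells, had 8 against 1318 UMIs, at 0 to 68.6 against 98.99 to 365 CPM (-3.93 ± 0.45, adjusted p = 2.38e-07). *Hmgb2* fell by 2.26 on the log2 scale, and *Ube2c* (-1.75, adjusted p = 0.0429) lost the call without pool 18 (adjusted p = 0.129). Its Retnlg-side level came from 1 pool at 1012 CPM, and the median over pools was 0. With members at 5% or more, all 12 replication genes tested were lower (26.6% of all genes were), with a median of -4.61 when genes at 0 are set at their bound.

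Of 6 tested genes of promyelocytes and precursors, 2 were lower on the Retnlg side, *Ms4a3* and *Hmgn2*, and 1 was higher, the granule proteoglycan *Srgn* (1.26). With members at 5% or more, 5 of 6 were lower and 1 higher, and the median log2 fold change went from -0.40 to -1.28. *Cebpe* was at 0 in 4 of 7 pools on the Retnlg side and at most 40.5 CPM, against 108 to 343 on the Camp/Ngp side (-3.90 ± 0.46, edgeR adjusted p = 3.74e-07). It had 7 against 1148 UMIs over the 7 pools, and a 0 in a single shallow pool is only a bound. *Fcnb*, a ficolin of early granules, had no UMI on the Retnlg side and 627 on the other, at least 19.2-fold lower by its share of UMIs against a floor of 3 counts over the group. *Ms4a3*, a gene of granulocyte and monocyte precursors, had 2 against 521 UMIs, a 23.9-fold ratio (95% counting interval 6.59 to 198), and the histone gene *Hist1h1b* 2 against 944, a 43.4-fold ratio (12.0 to 359). The Retnlg-side UMIs of both were in pool 18, and the 6 other pools were at 0. *Mgst2* (-3.22) and *Lta4h* (-3.56), enzymes of leukotriene metabolism, the chromatin protein *Hmgn2* (-3.08) and *Pclaf*, a partner of PCNA (-3.02), were among the 10 lowest folds, which were named on condition of 1 direction in every pool.

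Granule genes outside the rule divided. Of 10 tested, 4 were lower on the Retnlg side and 2 higher (4 and 4 with members at 5% or more). *Chil3* was 2.91-fold lower by mean level (-1.55 ± 0.23, edgeR adjusted p = 1.66e-05) and *Cd177* 1.86-fold lower (-0.92, adjusted p = 0.0133). *Mmp8* was higher, at 1561 to 4278 CPM (median 2963) against 282 to 1007 (median 474), without overlap (2.43 ± 0.22, adjusted p = 6.62e-09). *Mmp9* was higher by 1.28 (adjusted p = 0.000771). *Pglyrp1* (-0.52, adjusted p = 0.111) and *Hp* (0.28, adjusted p = 0.447) did not pass, although *Hp* did with members at 5% or more (0.51, adjusted p = 0.00158). Of the 6 oxidase subunits 2 were lower, among them *Cybb*, at 96.9 to 571 against 539 to 1735 CPM (-1.88 ± 0.24, adjusted p = 2.23e-06), and none was higher. With members at 5% or more, 3 oxidase subunits were lower and 2 higher, and with members over 2% stromal UMIs left out, 4 were lower and none higher.

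Mature neutrophil genes were higher on the Retnlg side in 12 of 16 cases and lower in 1, with a median log2 fold change of 1.16 (14 higher and 1 lower with members at 5% or more). The interleukin-1 decoy receptor *Il1r2* was at 402 to 783 CPM (median 486) against 43.3 to 201 (median 94.5), without overlap (2.37 ± 0.25, edgeR adjusted p = 7.53e-08). *Csf3r* was at 111 to 261 against 26.5 to 53.2 CPM (2.22 ± 0.30, adjusted p = 3.98e-06). *Cxcr2* was at 0 to 185 CPM (median 125) against 24.6 to 60.0 (1.495 ± 0.36, adjusted p = 0.00489), with the 0 in pool 12, and the call was lost without pool 18 (1.32, adjusted p = 0.0631). *Clec4d*, a C-type lectin, rose by 2.57 and the chemokine *Ccl6* by 2.55, while *Ifitm6* fell by 0.82 on the log2 scale (adjusted p = 0.0429; 0.0593 without pool 18). The skin aspartic protease gene *Asprv1* (3.15), the phospholipase *Pla2g7* (2.32), the lymphotoxin gene *Ltb* (2.27) and the chemerin receptor-like *Ccrl2* (2.26) were among the 10 highest folds, named on the same condition.

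Of 13 chemoattractant receptors and adhesion genes, 8 were higher on the Retnlg side and 2 lower, also with members at 5% or more. *Fpr1*, a receptor for formyl peptides, was at 114 to 849.7 against 24.9 to 187 CPM (2.37 ± 0.28, edgeR adjusted p = 3.21e-07), and *Fpr2* (0.90) and *Cd44* (0.75) were higher in 6 of 7 pools, though *Cd44* lost the call without pool 18 (adjusted p = 0.0677). *Itgam* (-0.50, adjusted p = 0.267) and *Ptprc* (0.41, adjusted p = 0.311) did not pass, although *Ptprc* did with members at 5% or more (0.72, adjusted p = 0.000658). Of 10 inflammatory genes, 7 were higher and none lower, and 9 of 9 were higher with members at 5% or more. *Il1b*, which encodes interleukin-1 beta, was at 154 to 410.3 CPM (median 305) against 12.0 to 55.7 (median 39.0), without overlap (3.09 ± 0.29, adjusted p = 8.2e-09). *Cxcl2* (0.94, higher in 5 of 7 pools) and the NF-kB regulators *Nfkbia* (0.89) and *Nfkbiz* (1.19) were also higher. *Ccl3* was 0.66 (edgeR adjusted p = 0.117, and 1.00 with adjusted p = 5.64e-06 with members at 5% or more).

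**Figure D5:**
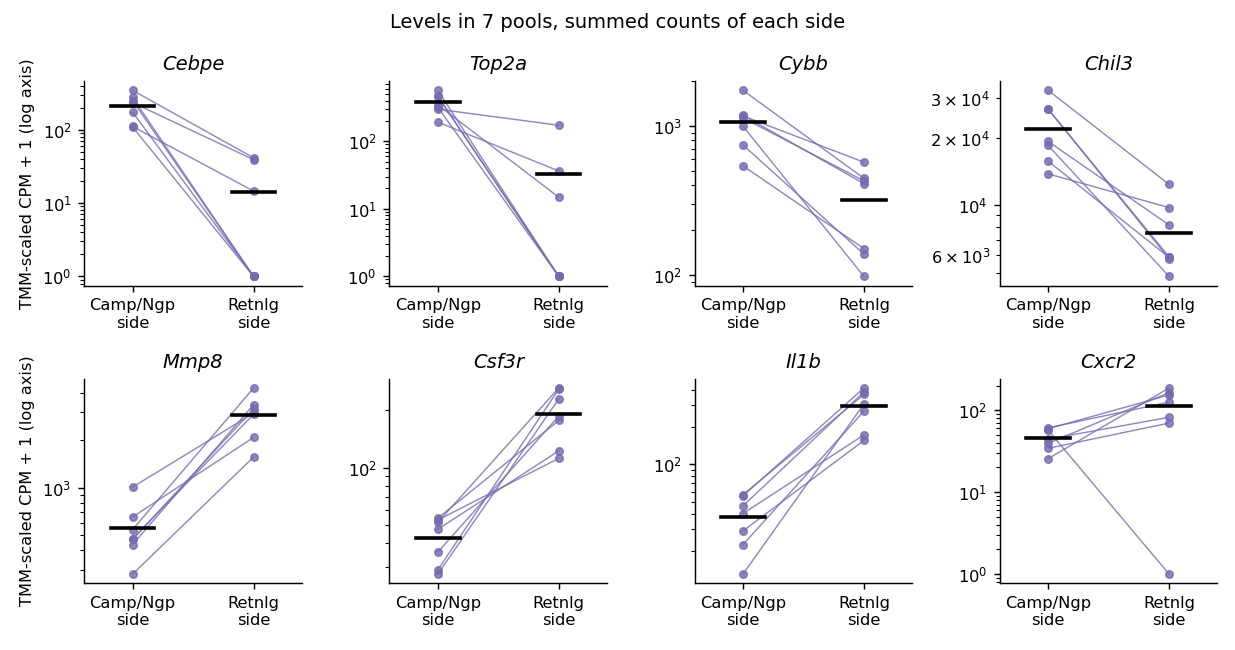
TMM-scaled CPM plus 1 (y axis, log scale) of 8 genes in the summed counts of the Camp/Ngp side and the Retnlg side (x axis), with a line per pool (n = 7) and a black bar at the mean. *Cebpe* and *Top2a* have no count on the Retnlg side of 4 pools each, which is only a bound at that depth. *Mmp8*, *Csf3r* and *Il1b* rise in every pool, and *Cxcr2* rises in 6 of 7.

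Among 10 transcription factors, 3 were higher on the Retnlg side, including *Junb* (1.01) and *Cebpb* (0.84), and 1 was lower, while *Spi1* differed by 0.07 (edgeR adjusted p = 0.898). Of 7 survival genes 3 were higher, among them *Bcl2a1b* (1.53, adjusted p = 9.06e-05), which belongs to a family of near-identical copies. No glycolysis gene of 15 passed, and the median was -0.27, although 7 of 11 were lower among members at 5% or more. Some markers of other cells differed between the sides. Of 13 stromal genes tested, 4 were lower on the Retnlg side and 2 higher. With members at 5% or more, 9 of 11 were lower and 1 higher. *Ibsp* (-1.34) and *Col1a1* (-1.23) were among the lower ones and turned to 0.67 and 0.57 once members over 2% stromal UMIs were left out. In that setting 5 of 11 stromal genes were higher and none lower. *Ibsp* and *Col1a1* count toward that stromal share, so the turned values are a description. *Cd14* (1.56) was the 1 macrophage gene of 6 that passed, and *C1qa*, *C1qb*, *C1qc*, *Apoe* and *Lgmn* did not. The summed macrophage list was 0.224% of UMIs on the Retnlg side (0.155 to 0.469% over pools) against 0.111% (0.0634 to 0.149%). That sum includes *Cd14*, with 1098 and 3995 UMIs in the 7 pools. The median log2 fold change of the 6 genes was -0.42, so the sum does not show a rise of the list as a whole. The part of other cells in this was not tested. *Cd74*, from B cells and macrophages, was 1.92 (adjusted p = 0.00778) with 137 and 221 UMIs in all and was higher in 4 of 7 pools. With members over 2% stromal UMIs left out, 594 of 3084 genes (19.3%) passed, 7.56% higher and 11.7% lower, and 12 of 14 replication genes were lower, 11 of 16 mature neutrophil genes higher and 8 of 9 inflammatory genes higher.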

How the data were processed

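Per the submitters' processing notes, the authors ran Cell Ranger 5.0.0 with mm10. They deposited whole-number UMI counts for each gene in each barcode, without normalization and before the limits on genes and mitochondrial UMIs used here. The first run held 3460 to 9429 barcodes per pool. The first of 2 runs of each pool was used, and the second served as an alternative. Barcodes were kept with 400 to 6200 genes and at most 10% mitochondrial UMIs. Doublets were not removed, and Scrublet (scanpy 1.11.5) served as an alternative.

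For each pool and class the deposited counts were added up and fitted in edgeR 4.0.16 under R 4.3.3 (filterByExpr, TMM, quasi-likelihood test, pool as a block). DESeq2 1.42.0 was an alternative. The genes of the rules were left out of the tests. Printed standard errors are from this fit. Samples are paired because both classes come from 1 pool of mice and 1 capture. Same-pool deviations correlated at a median of 0.257 over 11 pools in the first comparison (above 0.1 in 9) and 0.118 over 7 in the second (above 0.1 in 4), and those of different pools at -0.01 and -0.02. The test was tried on simulated counts, whose spread was set and not taken from the data. In the first comparison it recovered 100% of 2-fold changes, with 4.31% of calls false. Between the sides it recovered 60% of 2-fold and 99% of 4-fold changes, with 6.47% of calls false. Differences of about 2-fold between the sides can thus be missed. Pools had 53990642 to 100777353 UMIs, which limits the precision of genes with few counts.

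Members and gene lists were chosen with earlier results of these data known. Named genes were the 10 highest and 10 lowest folds with a mean log2 CPM of at least 6 and 1 direction in every pool, the rule genes, 8 defining granulocyte markers, and up to 4 genes of highest mean level per list. Not every gene of such level was printed, for instance *Ifitm2* of the mature neutrophil list and, between the sides, *Itgb2* of the receptor and adhesion list. Upstream sequences came from RefSeq tables for GRCm38.p6, matched by symbol. Permutation tests used 100000 resamples. Figures were drawn with matplotlib 3.10.9.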

Additional observations from a re-analysis of the deposited data

Results flagged for a closer look

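*Cxcr2* on the Retnlg side of pool 12 stood apart from the other pools. In that pool the Retnlg side, 13 members, had 0 CPM against 56.0 on the Camp/Ngp side, a difference of -2.72 in log2 of CPM plus 10 that depends on the 10 added. These 13 members held 27631 UMIs, so that a count of 0 allows up to 87.9 CPM (3 counts), which is above the Camp/Ngp-side level, and a lower level was not detectable at this depth. The 6 other pools lay between 0.77 and 2.50. The gap was 0.669 of the whole range, above the critical value of 0.568 for 7 pools. This was the 1 such case among 57 genes looked at, and chance gives about 1 in 20 per gene.

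Droplets that the cell filter removed also met the gene rule. This was so for 77 of 5097 droplets under 400 genes (1.51%, exact 95% binomial interval 1.19 to 1.88%), where the 6-gene sum had a median of 10.1% and 27 had a *Retnlg* UMI. It was so for 9 of 2270 droplets over 6200 genes (0.396%, median sum 1.72%) and for 60 of 13191 over 10% mitochondrial UMIs (0.455%, median 5.87%). In all, 130 of 16929 removed droplets met the rule, against 2061 of 90924 kept.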

How the results depend on the processing

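The number of members was 1427 to 2069 over all settings, and without each pool the genes past the threshold numbered 4756 to 5278 against *Csf1r*-positive *Tyrobp*-positive cells and 295 to 437 between the sides. Between the sides, the main 418 (187 higher and 231 lower on the Retnlg side) became 123 with at least 20 members a side (80 higher and 43 lower), 271 without members with a *Csf1r* UMI, 715 with no filter on low counts (116 higher and 599 lower), 993 at a threshold of 2% and 1221 at 5%. At a side ratio of at least 3 they were 320 (190 higher and 130 lower), so the balance turned there as with at least 20 members a side. Both of these settings leave 3 pools of 7. The balance also turned without pool 8 alone (162 higher and 140 lower). It was near even without pool 12 (175 and 177) and without pool 18 (153 and 155). The cause of these changes was not tested. At 5%, 7 named genes gained the call between the sides (*Ccl3*, *Cyba*, *Gapdh*, *Hp*, *Mcl1*, *Ptprc* and *Tuba1b*) and none lost it, though *Cd74* was no longer among the genes tested, and *Nfkbia* lost it in the first comparison. Leaving out *Csf1r*-positive *Tyrobp*-positive cells over 2% stromal UMIs, with members uncut, reversed *Ibsp* and *Col1a1* to 2.95 and 2.52 in the first comparison. Leaving out members over 2% reversed them to 0.67 and 0.57 between the sides. Both genes count toward the stromal share that made these cuts, so the reversals are a description. Without the replicate block, that is without the pairing by pool, 5033 and 392 genes passed. DESeq2 gave 5383 and 441, and relative log expression scaling 5286 and 436.

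For the named genes over all settings, 1924 values in the first comparison stayed on the same side of the threshold, 21 lost the call and 3 gained it, and in the second 1236 stayed, 82 lost it and 40 gained it. *Cd44* and *Psap* lost the call between the sides in 10 of 24 settings, *Ube2c* and *Ifitm6* in 9, *Fpr2* in 8 and *Cxcl2* in 5. *Col1a1* lost it against *Csf1r*-positive *Tyrobp*-positive cells in 9 of 28. Depth also limits the Retnlg side, where 222 members in the 7 pools stand behind the values.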

Other observations

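Transcripts of lymphoid, basophil and mast, eosinophil and endothelial cells were sparse among the granule members. *Cd3d*, a chain of the T cell receptor complex, had 435 UMIs in granule members and 53 in *Csf1r*-positive *Tyrobp*-positive cells (log2 fold change 6.27, edgeR adjusted p = 5.63e-11), at 0 to 137 CPM over pools, and was higher in 10 of 11. Of the 3 T and NK cell genes tested, *Cd3d* and *Nkg7*, a granule protein of cytotoxic cells (4.12), were higher and *Il7r*, the interleukin-7 receptor, was lower (-3.46). With members at 5% or more, *Nkg7* was not among the genes tested, *Cd3d* was 6.62 and *Il7r* -3.32, and *Cd3d* was not among the genes tested without pool 8, without pool 18 or without other-class cells over 2% stromal UMIs. The summed list, *Cd3e*, *Cd3g* and *Trbc2* among its 8 genes, was 0.0072% of the members' UMIs against 0.0123%. Of 6 monocyte genes tested, 4 were lower, with a median of -1.89, among them *F13a1*, a coagulation factor (-2.69). The 1 that was higher was *Ly6c2*, also an antigen of myeloid precursors (5.42). With members at 5% or more, 4 of 5 were lower and 1 higher. The stem cell factor receptor *Kit*, the 1 basophil and mast cell gene tested, was higher (1.53), and that list summed to 0.00319% of the members' UMIs, eosinophil genes to 0.000216% and endothelial genes to 0.000604%.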
